A study of Mus musculus with 18 samples.

Results

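The livers called 1OFF, which carry the shortest time after injury among the labels of this series, were compared with the 12ON livers, in which MycER had been activated. The comparison rested on 6 of the 18 libraries in the series, 3 of 1OFF and 3 of 12ON, chosen by their labels alone, and each library came from a separate mouse. MycER joins the transcription factor MYC to the hormone-binding domain of the estrogen receptor, so that the fusion acts only while tamoxifen is given. The labels give the 1OFF livers as taken 1 day after injury without MycER activation, and the 12ON livers as taken 12 days after injury with it. A second reference, group 12, was taken 12 days after injury without activation (3 mice). Injury was by intraperitoneal carbon tetrachloride in oil, a hepatotoxin that kills hepatocytes around the central vein, at 0.5 µL per g of body weight, and activation by daily intraperitoneal tamoxifen at 1 mg. All mice were injured, including those of groups 12ON and 12. The design text sets each OFF group against 12ON, and several points are not given in the labels: any earlier MycER activity in the 1OFF mice, the sex of the mice, the promoter that drove MycER, whether group 12 received tamoxifen, and the hour of sampling. MycER status and the days since injury therefore cannot be told apart in this comparison, and the time of 1OFF is known here from its label alone.

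MYC is a transcription factor that heterodimerises with MAX on E-box motifs and is known for driving ribosome production, nucleotide synthesis and entry into the cell cycle. Entry into S phase also runs through the E2F factors, which are released from the retinoblastoma proteins by cyclin E and cyclin D kinases and drive the genes of DNA replication. In the adult liver hepatocytes rarely divide, and they carry the programmes of plasma protein secretion, gluconeogenesis and amino acid breakdown. After injury or partial loss of the organ they enter the cell cycle and return to rest once mass is restored.

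The 1OFF libraries held 25927469 to 50108171 counts over genes, and the 12ON libraries 36610194 to 46812541. Mitochondrial genes took 6.16% to 7.33% of all counts in 1OFF and 6.42% to 7.11% in 12ON, with overlapping groups. After normalisation the summed level of the 13 mitochondrially encoded genes was 62373 to 68333 CPM (counts scaled to library size) in 1OFF and 58051 to 59064 CPM in 12ON, which did not overlap, and none of the 13 was called. All 10 hepatocyte markers were detected, with Alb at 33580 to 38578 CPM in 1OFF and 24409 to 31149 CPM in 12ON. H19, a fetal-liver RNA, lay at 20042 to 24478 CPM in 1OFF and 20078 to 26405 CPM in 12ON. On the scale of all 18 libraries it averaged 19098 ± 2110 CPM in 1OFF and 93.1 ± 54.1 CPM in group 12 (SD, n = 3 each). Dlk1, also known from fetal liver, averaged 10.9 ± 5.6 CPM in 1OFF and 0.221 ± 0.148 CPM in group 12 on that scale. Xist, the RNA of the inactive X chromosome, lay at 0.513 to 0.798 CPM in 1OFF, against 0.438, 441 and 0.534 CPM in 12ON, so that replicate 2 of 12ON stood apart. The median relative log2 level of 5 sex chromosome genes, Xist and Y-linked genes, was -3.42 in that library. In the other 5 libraries it was 0.54 to 0.78. Over 13 sex-biased liver genes it was -1.14 in replicate 2 of 12ON and -0.30 to 0.47 in the others. By the sex chromosome genes that library read as female and the others as male, and the part of sex was not tested. Results without replicate 2 of 12ON are given below with those of the other 5. Replicate 3 of 1OFF was the shallowest of the 6 libraries.

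Of 17131 genes tested, 189 (1.10%) passed an adjusted p of 0.05 in 1OFF against 12ON. They were 46 genes higher in 1OFF (0.269%) and 143 lower (0.835%), by the quasi-likelihood test of edgeR, adjusted for all tested genes after Benjamini and Hochberg. A change of at least 2-fold was reached by 12 of the higher and 63 of the lower genes. The median log2 fold change of 1OFF over 12ON was 0.65 among the higher and -0.90 among the lower genes, against 0.01 over all genes tested. The lower genes included 19 of 30 listed genes of G1/S and replication, and the higher ones included enzymes and secreted proteins of hepatocytes and glucocorticoid-responsive genes. In all 189 genes the 3 libraries of one group lay apart from the 3 of the other. Over all tested genes, 2223 (13.0%) were higher in all 1OFF libraries than in any 12ON library, and 2559 (14.9%) lower. At an unadjusted p of 0.05 by that test the shares were 9.92% higher and 11.4% lower. Counts of list and family members below are to be read beside these shares over all tested genes.

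**Figure D1:**
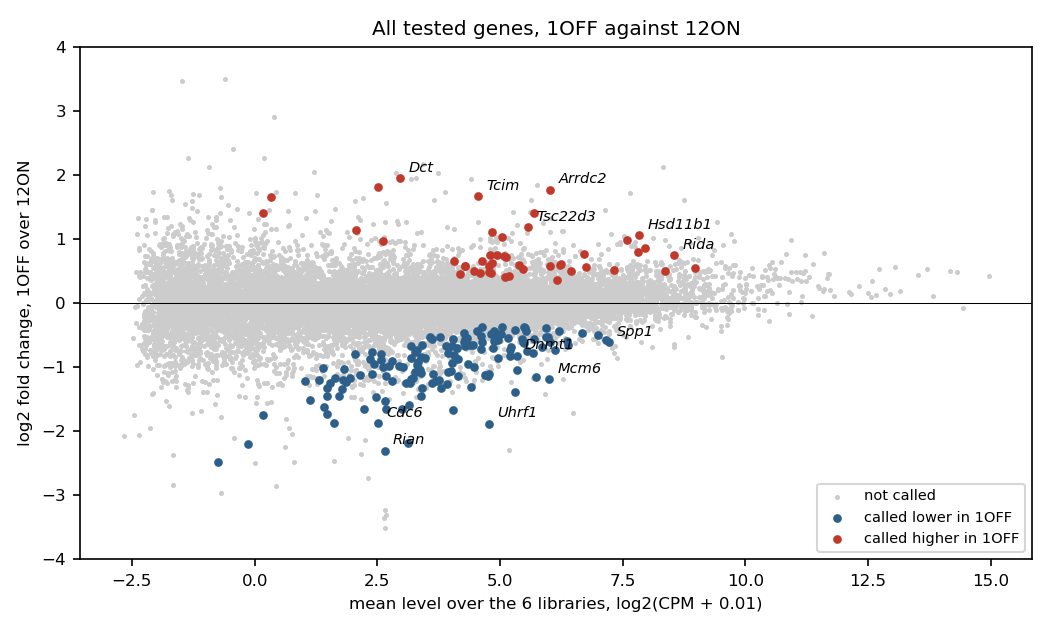
Log2 fold change of 1OFF over 12ON (vertical axis) against the mean level over the 6 libraries as log2(CPM + 0.01), with 1 point for each of the 17131 tested genes; 2 genes lie outside the plotted range. The 143 genes called lower (blue) reach down to -2.48 and the 46 called higher (red) up to 1.96.

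Distances between libraries of the same group and of different groups overlapped. The root mean square log2 difference between 2 libraries was 0.281 to 0.359 within 1OFF, 0.300 to 0.354 within 12ON and 0.314 to 0.552 between them. The 12ON replicate farthest from 1OFF was replicate 2, at 0.410 to 0.552, while replicate 1 of 12ON lay 0.314 from replicate 2 of 1OFF and 0.354 from replicate 2 of its own group. All of the calls, or all but 1, were lost when any library other than replicate 1 of 12ON was left out. No gene was called in either direction without replicate 1, 2 or 3 of 1OFF, or without replicate 3 of 12ON, where 2843, 3584, 2932 and 3216 genes had an unadjusted p under 0.05 by the same test. Without replicate 2 of 12ON 1 gene was called, and without replicate 1 of 12ON 30 were higher and 114 lower, 91 of them among the 189. Of the 189 genes, 98 lost their call in all 6 of these fits, 90 kept it in 1, and Tcim kept it in 2. Every one of the 189 had an unadjusted p under 0.05 in each of the 6 fits. They were chosen for small p-values in the full fit, and each of these fits reuses most of its libraries. Their small p-values here are therefore no separate support. Since the groups of these genes do not overlap, leaving out a library could not turn their direction.

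**Figure D2:**
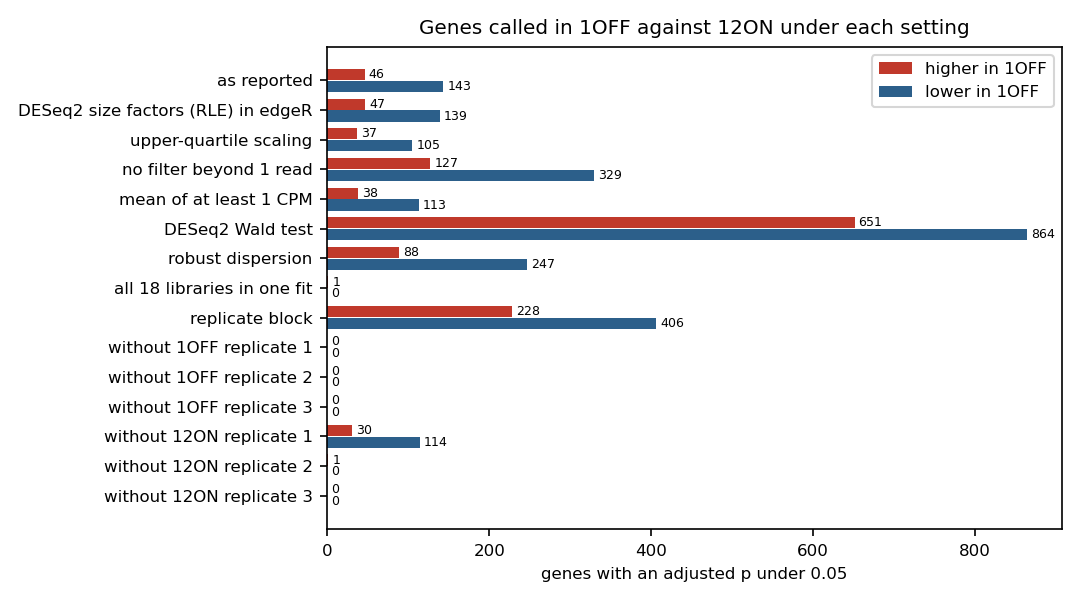
Number of genes with an adjusted p under 0.05 in 1OFF against 12ON, higher in 1OFF (red) and lower in 1OFF (blue), as reported and under 14 other settings. Counts run from 0 in both directions, when any single 1OFF library or replicate 3 of 12ON is left out, to 651 higher and 864 lower with DESeq2's Wald test.

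The G1/S transition and DNA replication list held 30 genes, all tested: 19 were lower in 1OFF and none higher, with a median log2 fold change of -1.02. Without replicate 1 of 12ON 18 were lower, and without any other single library 0 were. Replication starts when CDC6 and CDT1 load the MCM2-7 helicase onto origins. All 6 MCM2-7 genes were lower, with log2 fold changes of -1.39 to -1.11. Mcm6 (chromosome 1, 128331590 to 128359664 in GRCm38, minus strand) had 41.5, 41.6 and 33.5 CPM in 1OFF, against 74.7, 92.1 and 99.5 CPM in 12ON. No 1OFF library reached the lowest 12ON library, and the log2 fold change was -1.19 ± 0.13 (SE, n = 3 mice per group, edgeR adjusted p = 0.0353). Mcm7 had 34.3, 36.0 and 28.3 CPM in 1OFF and 61.4, 80.6 and 77.3 CPM in 12ON, a log2 fold change of -1.15 ± 0.13. Mcm5 had 24.1, 24.1 and 17.0 CPM in 1OFF and 45.8, 64.9 and 61.1 CPM in 12ON. In each of these 3 genes replicate 3 of 1OFF was the lowest library and replicate 1 of 12ON the lowest of its group.

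The loaders moved with the helicase. Cdc6 had 2.48, 2.74 and 2.03 CPM in 1OFF, against 5.57, 9.31 and 12.0 CPM in 12ON, a log2 fold change of -1.88 ± 0.28 (edgeR adjusted p = 0.0426). Cdt1 had 11.8, 11.2 and 9.64 CPM in 1OFF and 19.9, 26.3 and 26.5 CPM in 12ON, a log2 fold change of -1.15 ± 0.13. Among genes that control or fire the loaded helicase, Cdc45 was lower by a log2 fold change of -1.14 ± 0.18 and Gins1 by -1.004 ± 0.13. Genes outside the list that act with them were also lower: Gmnn, the inhibitor of CDT1, Dtl, which targets CDT1 for degradation, and Ticrr, which helps origins to fire, at log2 fold changes of -0.85, -1.59 and -1.63. Of the GINS subunits, Gins1 passed the test and Gins3, at -1.01 ± 0.18, did not (edgeR adjusted p = 0.0505).

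At the replication fork, Pole, the catalytic subunit of DNA polymerase epsilon (chromosome 5, 110286306 to 110337474, plus strand), had 7.92, 6.82 and 6.85 CPM in 1OFF, against 14.9, 19.7 and 17.1 CPM in 12ON. The groups lay well apart, at a log2 fold change of -1.26 ± 0.13 and an edgeR adjusted p of 0.0263, a value that Pole shared with 8 other genes. Of 12 tested subunits of polymerases alpha, delta and epsilon and of primase, 4 were lower (Pole, Pola1, Pold3 and Prim1) and none higher; this family and the other families named below were chosen after their values had been seen. Pole4 and Pold4, small accessory subunits, had log2 fold changes of 0.12 and 0.11 and did not pass. The sliding clamp Pcna had 35.2, 41.8 and 35.6 CPM in 1OFF and 52.2, 72.3 and 69.0 CPM in 12ON, a log2 fold change of -0.78 ± 0.13. Pcna-ps2, a pseudogene copy of Pcna, was lower too, and reads of the pair are hard to tell apart. Lig1, which joins lagging-strand fragments, was lower at -1.13 ± 0.14, and Rrm1, the large subunit of ribonucleotide reductase, at -1.05 ± 0.13.

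The cyclins and factors of the G1/S switch followed. Both cyclin E genes were lower, Ccne1 at a log2 fold change of -1.09 ± 0.14 and Ccne2 at -1.001 ± 0.16. E2f1 had 6.30, 7.53 and 6.25 CPM in 1OFF, against 11.4, 13.1 and 17.0 CPM in 12ON (log2 fold change -1.05 ± 0.16). E2f8, a repressor of the family that E2F factors themselves switch on, was lower at -1.22 ± 0.18. Of 13 E2F and partner genes 4 passed, all lower: E2f1, E2f8, the dimer partner Tfdp1 at -0.63 ± 0.09 and the pocket protein Rbl1 at -0.93 ± 0.13. E2f3, Rb1 and Rbl2 did not pass and had log2 fold changes of -0.11, 0.03 and 0.19. Ccnd1, the cyclin that couples growth signals to this switch, overlapped between the groups, with 124, 92.6 and 84.8 CPM in 1OFF and 122, 202 and 143 CPM in 12ON. The single listed gene with a positive value was Mcm10, at 0.23 ± 0.19, with overlapping libraries.

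**Figure D3:**
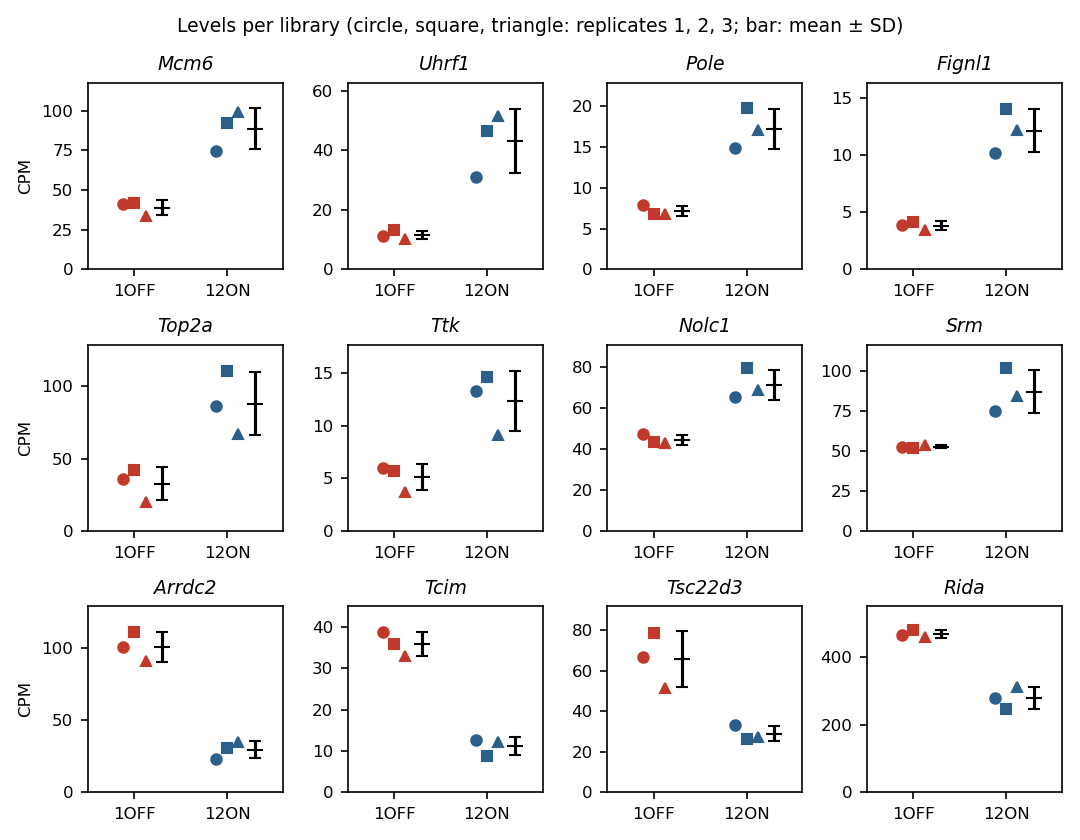
Normalised level in CPM of 12 genes in each library of 1OFF (red, left) and 12ON (blue, right), with the mean ± SD of 3 libraries as a black bar; each axis starts at 0. Replication genes (Mcm6, Uhrf1, Pole, Fignl1) and growth genes (Nolc1, Srm) lie lower in every 1OFF library, the mitotic genes Top2a and Ttk are lowest in replicate 3 of 1OFF (triangle), and Arrdc2, Tcim, Tsc22d3 and Rida lie higher in every 1OFF library.

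Several genes that copy chromatin and DNA methylation onto new strands were lower, again grouped after their values had been seen. Uhrf1, which reads hemimethylated DNA behind the fork (chromosome 17, 56303321 to 56323486, plus strand), had 11.4, 13.2 and 10.4 CPM in 1OFF, against 31.1, 46.5 and 51.5 CPM in 12ON. The gap was wider than the spread in either group, at a log2 fold change of -1.88 ± 0.19 (edgeR adjusted p = 0.0263). Leaving out 1 library moved that value between -2.08 and -1.74. Dnmt1, the methyltransferase that UHRF1 recruits, had 29.1, 29.7 and 29.1 CPM in 1OFF and 46.8, 55.2 and 53.2 CPM in 12ON (-0.82 ± 0.08). Hells, a remodelling ATPase needed for DNA methylation, was lower at -1.67 ± 0.23. Chaf1a and Chaf1b, subunits of the chaperone that places histones behind the fork, were lower at -1.27 ± 0.17 and -1.21 ± 0.17. Rbbp4, the third subunit, serves other complexes as well and did not pass (-0.25 ± 0.09). The histone chaperone Nasp, the histone acetyltransferase Hat1 and Ezh2, the methyltransferase of Polycomb complex PRC2, were lower at log2 fold changes of -0.70, -0.61 and -0.88. Of 49 tested histone cluster genes 2 passed, Hist1h2ap and Hist1h2ai, both lower, and in poly-A libraries histone transcripts without a poly-A tail are poorly caught.

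Checkpoint and repair genes were the next group among the 143, gathered after their values had been seen. Chek1, the kinase of the replication checkpoint, had 3.19, 4.01 and 2.41 CPM in 1OFF, against 7.16, 9.73 and 11.1 CPM in 12ON (log2 fold change -1.53 ± 0.23). Its mediator Clspn was lower at -1.66 ± 0.19, and the fork-protection pair Timeless and Tipin at -0.78 ± 0.10 and -0.90 ± 0.13. Fignl1, an ATPase of homologous recombination (chromosome 11, 11787431 to 11808962, minus strand), had 3.86, 4.18 and 3.42 CPM in 1OFF and 10.2, 14.03 and 12.2 CPM in 12ON. The log2 fold change was -1.66 ± 0.15 (edgeR adjusted p = 0.0263). Exo1, Bard1, Brca1, Blm, Rad18, Xrcc2 and Polq were lower as well, with log2 fold changes of -1.65 to -0.76. Of 13 tested Fanconi anaemia genes, the crosslink-repair family, 2 passed, both lower, among them Fanci at -0.53 ± 0.08.

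Genes of the nuclear envelope and pore were lower by smaller amounts. Of 19 nucleoporin genes 6 were lower, none was higher, and 18 had a negative log2 fold change, with a median of -0.40. Nup107, of the ring scaffold, had 11.7, 11.5 and 10.2 CPM in 1OFF, against 20.0, 23.3 and 20.6 CPM in 12ON (-0.93 ± 0.09, edgeR adjusted p = 0.0263). Nup155 was lower by less, -0.44 ± 0.06, and also passed. The B-type lamins Lmnb1 and Lmnb2 and the lamin B receptor Lbr were lower at -0.9999, -0.65 and -0.60, while Lmna, the A-type lamin, had -0.11 ± 0.10 and did not pass. The export receptor Xpo1 and the import recycling factor Cse1l were lower at -0.54 ± 0.08 and -0.40 ± 0.07.

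Promoters of the replication genes are shown because the E2F factors, of which E2f1 and E2f8 were themselves lower, bind a short motif there. The sequences are the RefSeq promoters of 4 called genes of the G1/S list, 250 bases before to 50 after the gene start on GRCm38.p6, written on the gene's strand from 5′ to 3′, with matches to the E2F core in capitals.
Uhrf1 (chr17:56303087-56303386, plus strand): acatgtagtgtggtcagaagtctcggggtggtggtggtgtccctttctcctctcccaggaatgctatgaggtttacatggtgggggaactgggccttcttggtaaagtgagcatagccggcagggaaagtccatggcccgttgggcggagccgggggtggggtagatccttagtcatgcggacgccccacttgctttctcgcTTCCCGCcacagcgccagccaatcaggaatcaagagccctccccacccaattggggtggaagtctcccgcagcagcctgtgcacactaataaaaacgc
Mcm6 (chr1:128359656-128359955, minus strand): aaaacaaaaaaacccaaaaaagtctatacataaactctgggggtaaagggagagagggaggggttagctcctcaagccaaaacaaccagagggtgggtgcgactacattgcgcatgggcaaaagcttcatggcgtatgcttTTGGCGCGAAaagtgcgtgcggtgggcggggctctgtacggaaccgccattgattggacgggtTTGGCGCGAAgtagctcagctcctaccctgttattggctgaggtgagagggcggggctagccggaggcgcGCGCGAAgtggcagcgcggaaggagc
Mcm7 (chr5:138171834-138172133, minus strand): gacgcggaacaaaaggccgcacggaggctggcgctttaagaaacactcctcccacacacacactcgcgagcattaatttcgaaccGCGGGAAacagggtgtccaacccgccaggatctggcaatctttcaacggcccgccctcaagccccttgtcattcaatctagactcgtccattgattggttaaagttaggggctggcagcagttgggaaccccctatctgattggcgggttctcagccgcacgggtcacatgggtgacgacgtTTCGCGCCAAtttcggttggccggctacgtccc
Cdt1 (chr8:122567765-122568064, plus strand): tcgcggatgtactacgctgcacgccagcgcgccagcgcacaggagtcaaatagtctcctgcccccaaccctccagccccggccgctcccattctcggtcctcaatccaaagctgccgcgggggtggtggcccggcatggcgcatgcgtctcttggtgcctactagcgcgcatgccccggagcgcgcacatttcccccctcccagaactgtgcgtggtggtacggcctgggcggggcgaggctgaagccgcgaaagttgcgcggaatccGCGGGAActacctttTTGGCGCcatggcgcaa
The E2F core was searched on both strands as TTCCCGC or TTGGCGC, and also as TTCGCGC or TTGCCGC, and matches may overlap. Mcm6 held 5 matches, Mcm7 3, Cdt1 2 and Uhrf1 1. Of 12113 tested genes matched by symbol to a promoter, 1895 (15.6%) held at least 1 match. The share was 50.9% among the 114 genes called lower that had a promoter, 12% among the 25 called higher, and 69.6% among 23 genes of the G1/S list. For the mitosis list it was 15.4% of 26, for canonical MYC targets 37.5% of 32 and for nucleotide, one-carbon and polyamine synthesis 38.1% of 21. The E-box CACGTG, the preferred site of MYC and MAX, stood in 9.75% of all promoters, in 15.8% of the genes called lower, in 8% of those called higher and in 0 of 23 of the G1/S list. It stood in 28.1% of 32 canonical MYC targets, in 23.8% of 21 genes of nucleotide, one-carbon and polyamine synthesis and in 32.1% of 28 genes of RNA polymerase I and ribosome assembly, of which 7.14% held the E2F core. A match describes the letters in this window and does not show binding.

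Mitotic genes had negative values but did not pass. None of 30 was called, all 30 had a negative log2 fold change, and 29 had an unadjusted p under 0.05 by edgeR's test. With DESeq2's Wald test 20 of the 30 were lower, and with no filter beyond 1 read 8 were. The median was -1.10, with edgeR adjusted p-values of 0.0519 to 0.426. Ttk, a kinase of the spindle checkpoint, had 5.98, 5.72 and 3.72 CPM in 1OFF, against 13.3, 14.6 and 9.08 CPM in 12ON (-1.25 ± 0.23, edgeR adjusted p = 0.0519). Top2a, the topoisomerase that untangles chromosomes, had 35.7, 42.1 and 20.1 CPM in 1OFF and 86.2, 111 and 67.0 CPM in 12ON (-1.42 ± 0.28, edgeR adjusted p = 0.0551). The groups did not overlap for 28 of the 30 genes, each lower in 1OFF. Over all tested genes 14.9% were lower without overlap, and 11.4% were lower at an unadjusted p under 0.05 by edgeR's test. Replicate 3 of 1OFF was the lowest of its group for all 30. The median SD of log2 levels within 1OFF was 0.61 for mitotic genes and 0.19 for replication genes, and the median SE was 0.30 and 0.16. Without replicate 3 of 1OFF the mitosis median was -0.84, and without replicate 3 of 12ON it was -1.30.

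Some genes of chromosome segregation outside that list did pass, and they too were picked out after their values were seen. Cenpn, of the centromere, had 1.76, 1.91 and 1.61 CPM in 1OFF, against 4.47, 5.07 and 4.98 CPM in 12ON (-1.45 ± 0.14, edgeR adjusted p = 0.0263). Kntc1 and Spdl1, which bring dynein to kinetochores, were lower at -1.46 ± 0.20 and -1.11 ± 0.19. Trip13, which takes apart checkpoint complexes, was lower at -1.25 ± 0.17, and the condensin II subunit Ncapg2 at -1.06 ± 0.17. In bulk RNA, fewer cycling cells and less of these RNAs per cell cannot be told apart.

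**Figure D4:**
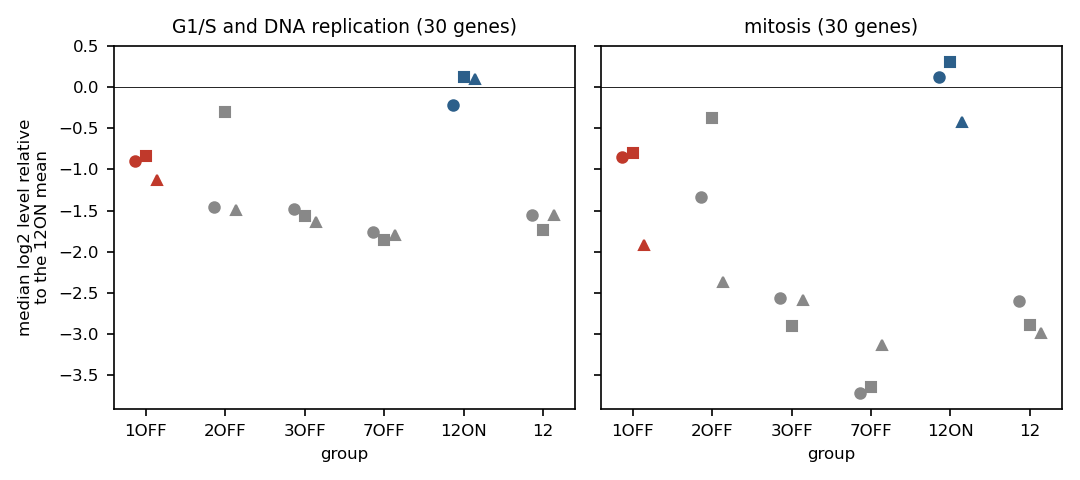
Median log2 level of 30 replication and G1/S genes (left) and the 30 of mitosis (right) in each library relative to the 12ON mean, on a scale set over all 18 libraries (circle, square, triangle for replicates 1, 2, 3). For replication the 1OFF libraries lie at -0.90, -0.83 and -1.13, between 12ON (-0.22 to 0.12) and group 12 (-1.74 to -1.55); for mitosis replicate 3 of 1OFF lies at -1.92 and the other 1OFF libraries at -0.85 and -0.80.

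Canonical MYC targets and the growth programmes had smaller differences. Of 36 canonical MYC targets 1 was lower, Nolc1, and all 36 had a negative log2 fold change, with a median of -0.35 and 24 at an unadjusted p under 0.05. Nolc1, a nucleolar chaperone of small RNPs, had 47.4, 43.2 and 42.8 CPM in 1OFF, against 65.5, 79.3 and 68.9 CPM in 12ON (-0.68 ± 0.09, edgeR adjusted p = 0.0413). Of 30 genes of RNA polymerase I and ribosome assembly 1 was lower, Rrp1b at -0.70 ± 0.11, with a list median of -0.31. Of 25 genes of nucleotide, one-carbon and polyamine synthesis 5 were lower, with a list median of -0.37. Srm, the spermidine synthase, had 52.2, 51.8 and 53.5 CPM in 1OFF and 75.1, 101.4 and 84.0 CPM in 12ON (-0.73 ± 0.11). The mitochondrial folate enzyme Mthfd1l was lower at -0.83 ± 0.12 and the purine enzyme Pfas at -0.61 ± 0.10. The pyrimidine enzymes Cad and Ctps were lower at -0.65 ± 0.11 and -0.69 ± 0.12. With DESeq2's Wald test 19 canonical MYC targets were lower, as were 13 genes of the RNA polymerase I list and 15 of the nucleotide list. With all 18 libraries in one fit 0 genes of these lists were called. Cytosolic ribosomal proteins lay near 0, with no gene called of 30, none at an unadjusted p under 0.05 and a median of -0.05.

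Neither part of the fusion passed. Reads of Myc cannot be split here between the endogenous gene and the fusion. Myc had 8.63, 7.16 and 9.76 CPM in 1OFF, against 7.87, 5.81 and 7.56 CPM in 12ON, and the groups overlapped (0.26 ± 0.17, edgeR adjusted p = 0.406). Esr1 averaged 16.3 ± 6.4 CPM in 1OFF and 11.4 ± 1.3 CPM in 12ON (SD, n = 3 each), with overlapping libraries and a log2 fold change of 0.50 ± 0.26 (edgeR adjusted p = 0.320). Of 13 factors of the MYC network none was called. At an unadjusted p under 0.05 by edgeR's test 3 of them were higher in 1OFF, against 9.92% of all tested genes. Mycl had 12.1, 8.70 and 6.59 CPM in 1OFF and 5.97, 4.37 and 3.67 CPM in 12ON (0.98 ± 0.26, edgeR adjusted p = 0.0963).

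Among the higher genes was the arrestin-domain gene Arrdc2 (chromosome 8, 70835155 to 70839720 in GRCm38, minus strand). It had 100.3, 111 and 90.6 CPM in 1OFF, against 22.99, 30.7 and 34.7 CPM in 12ON. The lowest 1OFF library was well above the highest 12ON library, at a log2 fold change of 1.77 ± 0.15 (edgeR adjusted p = 0.0263). Tcim, a small regulatory protein (chromosome 8, 24437180 to 24438984, minus strand), had 38.7, 35.8 and 33.0 CPM in 1OFF and 12.7, 8.84 and 12.2 CPM in 12ON. Its log2 fold change was 1.67 ± 0.14 (edgeR adjusted p = 0.0263), and it stayed called without replicate 2 of 12ON at 1.52 (edgeR adjusted p = 0.0219). Tcim overlaps the predicted gene Gm26714, which was also called at 1.82 ± 0.18, so reads of that stretch were counted for both. Dct, known as the melanin-pathway dopachrome tautomerase, had 9.95, 9.14 and 18.1 CPM in 1OFF and 2.96, 2.83 and 3.72 CPM in 12ON (1.96 ± 0.28, edgeR adjusted p = 0.0426). Spata2l rose too, at 1.41 ± 0.19, and shares positions with 2 other annotated genes.

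Of 20 genes that answer to glucocorticoids and fasting, 2 were higher, none was lower, and 12 had an unadjusted p under 0.05, all higher in 1OFF, with a list median of 0.64. Tsc22d3, a leucine-zipper gene switched on by glucocorticoids, had 67.1, 78.7 and 51.5 CPM in 1OFF, against 33.1, 26.4 and 27.6 CPM in 12ON (1.18 ± 0.16, edgeR adjusted p = 0.0413). Sds, the serine dehydratase of gluconeogenesis, had 250.2, 217 and 301 CPM in 1OFF and 157, 109 and 120 CPM in 12ON (0.99 ± 0.17, edgeR adjusted p = 0.0485). Hsd11b1, which regenerates active glucocorticoid inside hepatocytes, is not on the list and had 273, 338 and 312 CPM in 1OFF and 160.1, 111 and 170 CPM in 12ON (1.06 ± 0.17). Pck1, which makes phosphoenolpyruvate, had 1104, 1428 and 843 CPM in 1OFF and 830, 335 and 440 CPM in 12ON, and did not pass (1.07 ± 0.34, edgeR adjusted p = 0.134). Pdk4, another fasting gene, had a negative value of -0.66 ± 0.32 with overlapping libraries. Of 18 clock genes 1 was higher, Bhlhe40 at 0.61 ± 0.10, and the list median was 0.25. Bhlhe40, Per1 (1.02 ± 0.19, edgeR adjusted p = 0.0517) and Tsc22d3 all vary over the day, and the hour of sampling was not given, so its part was not tested.

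Secreted proteins and enzymes of hepatocytes held a few calls of smaller size. Of 25 secreted hepatocyte proteins 1 passed, all 25 had a positive log2 fold change, and 21 had an unadjusted p under 0.05, with a median of 0.41. With DESeq2's Wald test 14 of the 25 were higher, and with all 18 libraries in one fit 0 were. Apoc3, an inhibitor of triglyceride clearance, had 610.4, 536 and 639 CPM in 1OFF, against 405, 423 and 395 CPM in 12ON (0.55 ± 0.09, edgeR adjusted p = 0.0485). Of 25 genes of gluconeogenesis and amino acid catabolism 1 passed, Sds, with a median of 0.49. Tat, the tyrosine aminotransferase, had 601, 606 and 605 CPM in 1OFF and 446, 330.2 and 353 CPM in 12ON (0.68 ± 0.12), and missed the threshold by a small margin (edgeR adjusted p = 0.05004). C8g, a complement subunit, was higher at 0.86 ± 0.14, and Rida, which clears reactive enamines, at 0.75 ± 0.10. Rida had 464, 480.1 and 459 CPM in 1OFF and 279, 247 and 311 CPM in 12ON. The glucose transporter Slc2a2, the anion transporter Slc22a7 and the sterol sensor Insig2 were higher at 0.50, 0.53 and 0.52. Ppp1r3c, which directs a phosphatase to glycogen, was higher at 0.74 ± 0.11. Periportal hepatocyte genes had a median of 0.49 with 1 of 20 called, again Sds. Perivenous genes had a median of 0.08 with none of 19 called and 2 lower in 1OFF at an unadjusted p under 0.05 by edgeR's test. Over all tested genes 11.4% were lower at that p, so the perivenous count was near the share of all genes.

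**Figure D5:**
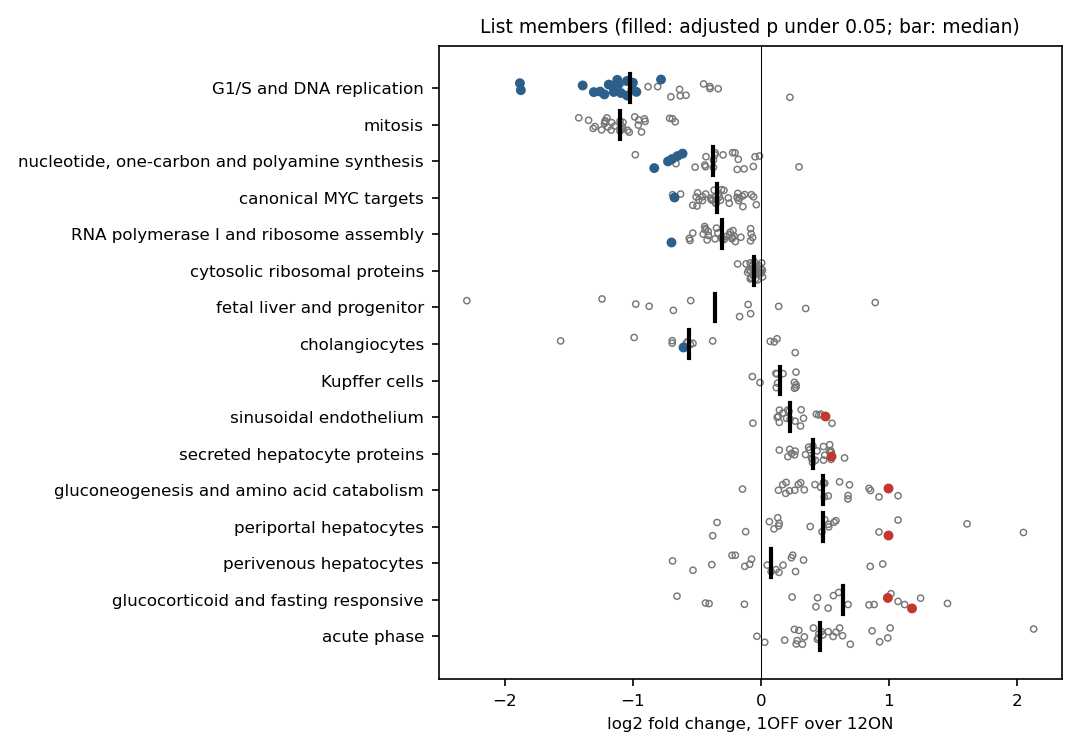
Log2 fold change of 1OFF over 12ON for the tested members of 16 gene lists, one row per list; filled points have an adjusted p under 0.05 (blue lower, red higher in 1OFF) and the black bar is the list median. Medians run from -1.10 for mitosis and -1.02 for G1/S with replication to 0.64 for glucocorticoid and fasting responsive genes.

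Stress and immune lists held few calls. In the unfolded protein response 1 of 20 passed: Herpud1, which helps to clear misfolded proteins from the endoplasmic reticulum, was higher at 0.80 ± 0.13, with 303, 324 and 229 CPM in 1OFF and 171, 160.4 and 160 CPM in 12ON. Herpud1 overlaps the predicted genes Gm15890 and, through it, Gm15889, both also called higher. Gsr, the glutathione reductase, was the single called gene of 19 NRF2 targets, lower at -0.47 ± 0.08. No acute-phase gene of 26 was called, with a list median of 0.46 and 7 at an unadjusted p under 0.05. Saa4 had 303, 220.2 and 311 CPM in 1OFF and 196, 123 and 139 CPM in 12ON (0.87 ± 0.20, edgeR adjusted p = 0.0736). None of 22 interferon-response genes and none of 15 heat-shock genes was called. The interferon list had a median of 0.35, with 20 genes positive and 6 higher at an unadjusted p under 0.05 by edgeR's test. The heat-shock median was -0.16, with 11 genes negative, and 4 were lower and 1 higher at that unadjusted p. Over all tested genes 9.92% were higher and 11.4% lower at that p. Hsp90aa1, the inducible cytosolic HSP90, had 299, 323 and 249.6 CPM in 1OFF and 386, 535 and 437 CPM in 12ON (-0.64 ± 0.15, edgeR adjusted p = 0.0720).

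An imprinted RNA and genes of the Bex and Tceal family were among the lowest values. Rian, a non-coding RNA of the imprinted Dlk1-Dio3 region (chromosome 12, 109603940 to 109661716, plus strand), had 1.22, 2.62 and 2.58 CPM in 1OFF, against 9.26, 6.48 and 15.4 CPM in 12ON. The log2 fold change was -2.31 ± 0.40 (edgeR adjusted p = 0.0485), and it lay between -2.56 and -1.91 when 1 library was left out. Its neighbours Dlk1 and Meg3 had like values without passing. Dlk1, a NOTCH-like ligand, had 5.08, 16.2 and 15.8 CPM in 1OFF and 90.0, 43.4 and 46.6 CPM in 12ON (-2.30 ± 0.46, edgeR adjusted p = 0.0590), and Meg3 had -2.14 ± 0.49. Of 4 tested genes of this region Rian alone passed. All 4 had negative values, and the weakest was -0.71. Bex1 and Bex4, small X-linked proteins, were lower at -2.18 ± 0.38 and -1.87 ± 0.32. Tceal7 was lower at -2.20 ± 0.36 but overlaps Bex1. Of 11 tested Bex and Tceal genes these 3 passed, 10 had a negative log2 fold change, and values ran up to 0.04. Bex1 had 2.02, 3.89 and 3.68 CPM in 1OFF and 16.9, 7.55 and 18.5 CPM in 12ON. Of 12 tested fetal-liver genes none passed, with a median of -0.36. H19 had a log2 fold change of -0.08 ± 0.16 and Igf2 one of 0.35 ± 0.19, both with overlapping libraries.

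Markers of other liver cells were checked beside these groups. The summed level of 10 hepatocyte markers was 67192 to 80810 CPM in 1OFF and 50345 to 60795 CPM in 12ON, which did not overlap, and none of the 10 was called. Cholangiocyte markers had a median of -0.56 over 14 tested genes of 15. Their summed level was 316 to 381 CPM in 1OFF and 392.4 to 431 CPM in 12ON, and Spp1, osteopontin, was the called gene. Spp1 makes up a large part of that sum, and without Spp1 the sums of the groups overlap. Spp1 had 121, 128 and 104 CPM in 1OFF, against 173, 169 and 194 CPM in 12ON (-0.61 ± 0.10, edgeR adjusted p = 0.0462). Krt19, a keratin that defines bile ducts, overlapped between the groups at 2.90 to 6.06 CPM in 1OFF and 5.87 to 8.52 CPM in 12ON. Sinusoidal endothelial markers had a median of 0.23 over 19 genes, and Oit3 was higher at 0.50 ± 0.08. Their summed level was 567 to 599 CPM in 1OFF and 472 to 500.1 CPM in 12ON. Markers of Kupffer cells, neutrophils, stellate cells and monocytes had no call and overlapping sums, as did erythroid and platelet markers. B and plasma cell markers, 7 tested of 12, had no call, and their summed level was 332 to 378 CPM in 1OFF and 264 to 311 CPM in 12ON, which did not overlap. Of the 7 genes 3 were higher in 1OFF without overlap, against 13.0% of all tested genes. A sum is led by its most abundant members, and the share of each gene in this sum is not given here. T and NK cell markers, 14 tested of 17, had no call and overlapping sums of 13.9 to 19.2 CPM in 1OFF and 11.9 to 14.3 CPM in 12ON. The part of cell composition in the results above was not tested.

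The same 1OFF libraries were set beside group 12, a comparison that shares its 1OFF samples with the first. On the scale of all 18 libraries, relative to the 12ON mean, the 5 sex chromosome genes had a median of -2.28 in replicate 3 of group 12. It was 1.40 and 1.34 in replicates 1 and 2 of group 12 and 1.32 to 1.41 in 1OFF. By these genes replicate 3 of group 12 read as female, and the part of sex was not tested. In it 2981 genes were higher in 1OFF (17.9%) and 2737 lower (16.4%) of 16695 tested, 34.2% in all, by the same test. Values of single genes in both comparisons are given side by side, 1OFF over 12ON first. Uhrf1 had a log2 fold change of -1.88 ± 0.19 over 12ON and 1.97 ± 0.18 over group 12. Mcm6 had -1.19 ± 0.13 over 12ON and 1.71 ± 0.14 over group 12. Mthfd1l had -0.83 ± 0.12 over 12ON and 3.59 ± 0.23 over group 12, so its 1OFF level was far from that of group 12. Rida had 0.75 ± 0.10 over 12ON and -0.59 ± 0.11 over group 12. Arrdc2 and Tcim went the same way in both, with 1.77 ± 0.15 and 1.67 ± 0.14 over 12ON, and 0.72 ± 0.33 (edgeR adjusted p = 0.132) and 0.65 ± 0.13 over group 12. Rian was lower in both, at -2.31 ± 0.40 over 12ON and -2.83 ± 0.31 over group 12. Hsd11b1 had 1.06 ± 0.17 over 12ON and -0.26 ± 0.15 over group 12 (edgeR adjusted p = 0.210).

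Levels over the later OFF groups, on the scale of all 18 libraries, placed the 1OFF values. By the median of the sex chromosome genes, replicate 1 of 2OFF (-2.47), replicate 3 of 3OFF (-2.44) and replicate 3 of 7OFF (-2.68) also read as female. Mcm6 averaged 34.3 ± 4.0 CPM in 1OFF, 34.9 ± 25.02 in 2OFF, 14.4 ± 1.6 in 3OFF, 8.13 ± 0.72 in 7OFF, 78.5 ± 11.2 in 12ON and 10.5 ± 1.7 in group 12 (SD, n = 3 each). In 2OFF replicate 2 stood apart, with 22.6, 63.7 and 18.4 CPM in the 3 libraries, and the other 2 lay below every 1OFF library (29.6 to 36.6 CPM). In the same gene the 3OFF libraries lay above those of group 12. Uhrf1 averaged 10.2 ± 1.2 CPM in 1OFF, 10.4 ± 8.7 in 2OFF, 3.51 ± 0.74 in 3OFF, 1.41 ± 0.77 in 7OFF, 38.1 ± 9.4 in 12ON and 2.63 ± 0.50 in group 12. Replicate 2 of 2OFF again stood apart, at 20.4 CPM against 5.41 and 5.28 CPM in its group. Rian averaged 1.88 ± 0.70 CPM in 1OFF, 6.46 ± 3.70 in 2OFF, 0.881 ± 0.381 in 3OFF, 0.653 ± 0.248 in 7OFF, 9.19 ± 4.03 in 12ON and 13.2 ± 2.9 in group 12.

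Of the 189 called genes, 83 overlap another annotated gene, and reads there were counted for each gene without regard to strand. Among the genes named above this holds for Pole, Pola1, Mcm7, Cdt1, Cdc45, Lig1, Ccne2, E2f8, Ticrr, Clspn, Exo1, Timeless, Tipin, Fanci, Dnmt1, Chaf1a, Ezh2, Hist1h2ap, Hist1h2ai, Trip13, Lbr, Cse1l, Mthfd1l, Pfas, Gsr, Rian, Bhlhe40, Slc2a2, C8g, Sds and Hsd11b1, besides those given with their partner. Of the 189 genes, 10 are predicted or unnamed and 5 lie under a mean of 2 CPM.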

How the data were processed

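The libraries hold poly-A liver RNA, each from its own mouse, read from one end over 50 nt. The submitters' processing notes name Trim Galore, TopHat2 and mm10. The deposited values are raw counts per gene, made by the authors, per the file headers, in featureCounts 1.5.0-p1 over Ensembl 82 exons (GRCm38): a minimum overlap of 10 bases, no strand, each overlapped gene counted, multi-mapped reads not counted.

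Of 34937 genes, 34599 were matched to a symbol. The 3 1OFF and 3 12ON libraries were fitted with edgeR 4.0.16 (R 4.3.3): TMM scaling, filterByExpr at a minimum count of 10, quasi-likelihood F tests (two-sided, 4 residual degrees of freedom), and Benjamini-Hochberg adjustment over all tested genes at 0.05. The biological coefficient of variation was 0.152. CPM values are normalised over these 6 libraries unless stated, and each SE was taken from the fold change and its F. Group 12 was compared in the same way. Libraries of a group differed by a chi-square per gene of 31.6 to 57.5, far above sampling noise.

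Named genes were Myc and Esr1, the 15 highest and 15 lowest log2 fold changes among called, annotated genes with a mean of at least 2 CPM and groups that did not overlap, and up to 3 called members of each list per direction (or, with none, the 2 of smallest p, as values); other names were chosen after their values were seen. The 48 lists (873 genes, 841 tested) and all comparisons were chosen with earlier results of these data known. Alternatives were other scalings, filters, thresholds, DESeq2 1.42.0, robust dispersion, all 18 libraries, a replicate block and leaving out each library.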

Additional observations from a re-analysis of the deposited data

How the results depend on the processing

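The counts of calls depended on the setting. In 1OFF against 12ON, 46 genes were higher and 143 lower. The counts were 127 and 329 with no filter beyond 1 read, 651 and 864 with DESeq2's Wald test, 88 and 247 with robust dispersion, 402 and 724 at an adjusted p under 0.1, and 12 and 63 with a 2-fold minimum. With all 18 libraries in one fit 1 was higher, Gm26714, and 0 were lower, with 2568 genes at an unadjusted p under 0.05; the spread is then shared with the other groups. Leaving out 1 library gave 0 to 30 higher and 0 to 114 lower. With 2 libraries in a group, fewer residual degrees of freedom remain. The replicate block gave 228 higher and 406 lower, with 29 of 30 mitotic genes lower. Each library's log2 deviations from its group mean were correlated between the groups, over genes with a mean of at least 1 CPM. These correlations were 0.04, 0.30 and 0.07 for same-numbered libraries, against -0.30 to 0.24 for libraries of unlike number. Not every library correlated best with its own number. The labels state no pairing, and so few pairs cannot decide whether the numbers pair the mice. Other scalings and a minimum of 1 CPM stayed within 1.5 times of the counts reported.

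Against group 12, 2981 higher and 2737 lower genes became 1129 and 826 with a 2-fold minimum, and 2068 to 2846 higher and 1671 to 2640 lower when 1 library was left out. Of named genes, none of them called, the log2 fold change of Xist was 0.47 without replicate 2 of 12ON and -8.35 without replicate 3, that of Cyp1a2 lay between -0.23 and 0.059 (without replicate 1 of 12ON) and that of Cela1 between -0.38 and 0.086 (without replicate 3 of 12ON); the cause was not tested. Of the 48 list medians, 17 changed sign in at least 1 setting, among them ribosomal proteins (-0.09 to 0.01), Kupffer cells (-0.03 to 0.40), perivenous hepatocytes (-0.05 to 0.20) and neutrophils; the medians of G1/S (-1.13 to -0.97), mitosis (-1.30 to -0.84) and secreted hepatocyte proteins (0.32 to 0.49) did not. Genes at a few CPM rest on few reads, most of all in replicate 3 of 1OFF.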
